A study of Mus musculus with 18 samples.

Results

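The genes described here are the Hox cluster genes measured on one-colour Agilent mouse arrays of fat cells. They were chosen by name, as every gene that the scanner files call Hoxa, Hoxb, Hoxc or Hoxd followed by a number, a rule that uses gene names only. The arrays carry 38 such genes among 27597 named genes, read by 50 probes of 60 bases: 11 of Hoxa, 10 of Hoxb, 8 of Hoxc and 9 of Hoxd. The study set fat depots and cell fractions side by side in young adult male C57BL/6 mice with no other treatment: interscapular brown, inguinal (subcutaneous white) and epididymal (visceral white) fat, each split by collagenase type II digestion and centrifugation into floating adipocytes and a pelleted stromal-vascular fraction (SVF), in which red cells were lysed. The 6 groups are brown, inguinal and epididymal adipocytes and brown, inguinal and epididymal SVF, with 3 biological replicates each and 18 arrays in all. The labels do not say whether a replicate is 1 mouse or a pool. The p-values therefore set a difference against the spread between these samples, taken over all 6 groups.

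Hox genes encode homeodomain transcription factors and lie in 4 clusters, in which genes are numbered by their order along the chromosome. Genes with the same number in different clusters are paralogues descended from one ancestral gene. In the embryo, low-numbered genes at the 3′ end of a cluster are switched on earlier and nearer to the head, and high-numbered genes at the 5′ end later and nearer to the tail, a rule known as collinearity. Connective tissue cells of the adult, fat precursors among them, keep a Hox pattern that reflects where in the body they came from. Homeodomain proteins bind DNA with cofactors of the Pbx, Meis and Pknox families, and Polycomb and Trithorax complexes keep Hox genes silent or active.

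Most probes read the untranslated end of a transcript, and a few lie in coding sequence. A Hoxa6 probe (chr6:52137778-52137837, minus strand, mm8) is printed from the scanner files because it carries a motif of the family. The capitals are the 12 bases that code for the core of the hexapeptide, the contact of Hox proteins with Pbx proteins.
Hoxa6: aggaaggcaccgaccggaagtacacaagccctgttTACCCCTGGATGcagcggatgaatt
Among 1213 pairs of probes for different Hox genes, 2 pairs shared 13 or more bases in a row, and the median longest shared run was 6 bases. Both pairs include the only Hoxa9 probe, which shares 22 bases with the second Hoxb3 probe and 14 with the Hoxd10 probe. Whether a homeobox probe also took up a paralogue's RNA was not tested.

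The 250 bases upstream of Hoxa5 (chr6:52204588-52204837) and of Hoxa10 (chr6:52234940-52235189) are rich in CG dinucleotides. Both are from RefSeq, build GRCm38.p6, on the minus strand, with every CG dinucleotide in capitals, and both genes are described below because they differ between depots in opposite directions. The Hoxa5 window holds 28 CG and the Hoxa10 window 20, against a median of 6 over 32851 windows of the same length. At least as many as in Hoxa5 are found in 7.61% of all windows, and at least as many as in Hoxa10 in 17.9%.
Hoxa5: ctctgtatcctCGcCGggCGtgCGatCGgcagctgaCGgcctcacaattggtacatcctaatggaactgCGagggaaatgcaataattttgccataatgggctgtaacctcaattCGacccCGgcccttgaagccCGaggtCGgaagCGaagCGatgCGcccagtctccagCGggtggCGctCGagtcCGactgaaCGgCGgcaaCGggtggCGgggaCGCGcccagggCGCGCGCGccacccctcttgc
Hoxa10: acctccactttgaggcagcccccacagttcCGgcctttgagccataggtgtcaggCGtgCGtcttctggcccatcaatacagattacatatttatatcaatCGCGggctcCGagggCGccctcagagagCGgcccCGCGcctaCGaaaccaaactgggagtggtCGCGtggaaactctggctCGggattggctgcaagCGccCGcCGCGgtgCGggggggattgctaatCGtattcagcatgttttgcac
A second annotated start of Hoxa10 has 7 CG in its window. Over 22 Hox genes with a window in that table the count ran between 2 and 35.

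A level below is the log2 processed signal of a probe minus the log2 75th percentile of its array, so 0 is the 75th percentile of that array. A gene with several probes is given by the brightest that passed the filter. Differences were tested with limma over 19217 genes with Benjamini-Hochberg adjustment, and a gene is called at an adjusted p under 0.05. Between 49.6% and 87.9% of the spots of an array were well above background, and the highest share was that of epididymal adipocyte 1. A signal that is not well above background has no level, so a group with no measured array gives only a bound: "at least N-fold" sets the measured group's mean against, per array, the higher of the dim signal and the lowest signal above background on that array. In bulk RNA, fewer cells of a type and less RNA per cell cannot be told apart.

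The libraries were checked against their labels before any comparison. Adipoq, the fat cell hormone adiponectin, stood between 7.41 and 8.79 in the 9 adipocyte arrays, and between 0.66 and 7.16 in the 9 SVF arrays, with 7.16 in brown SVF 2. The array labelled inguinal SVF 1 went against its labels. It alone had Xist, the RNA of the inactive X chromosome, at 4.99, where the other 17 arrays lay between -7.90 and -4.57, and it alone lacked the Y-linked Ddx3y, at -6.49. It also had all 8 listed mesothelial genes above background, with a summed linear signal of 142 times the 75th percentile, against 0.74 and 0.97 in inguinal SVF 2 and 3 and 11.5 to 68.5 in epididymal SVF. Tbx15, which was above background in inguinal SVF 2 and 3 at 1.31 and -1.41, was at -5.15 in inguinal SVF 1. Inguinal SVF 3 had the highest lymphocyte signal of the series, with a summed signal of 104 over 6 genes against 2.67 and 18.3 in the other inguinal SVF arrays, and the lowest progenitor signal of its group, 367 against 879 and 776. Results that rest on inguinal SVF are therefore given with and without replicate 1. The spread of a gene is estimated over all groups together, so inguinal SVF 1 can also widen it in comparisons without inguinal SVF.

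**Figure D1:**
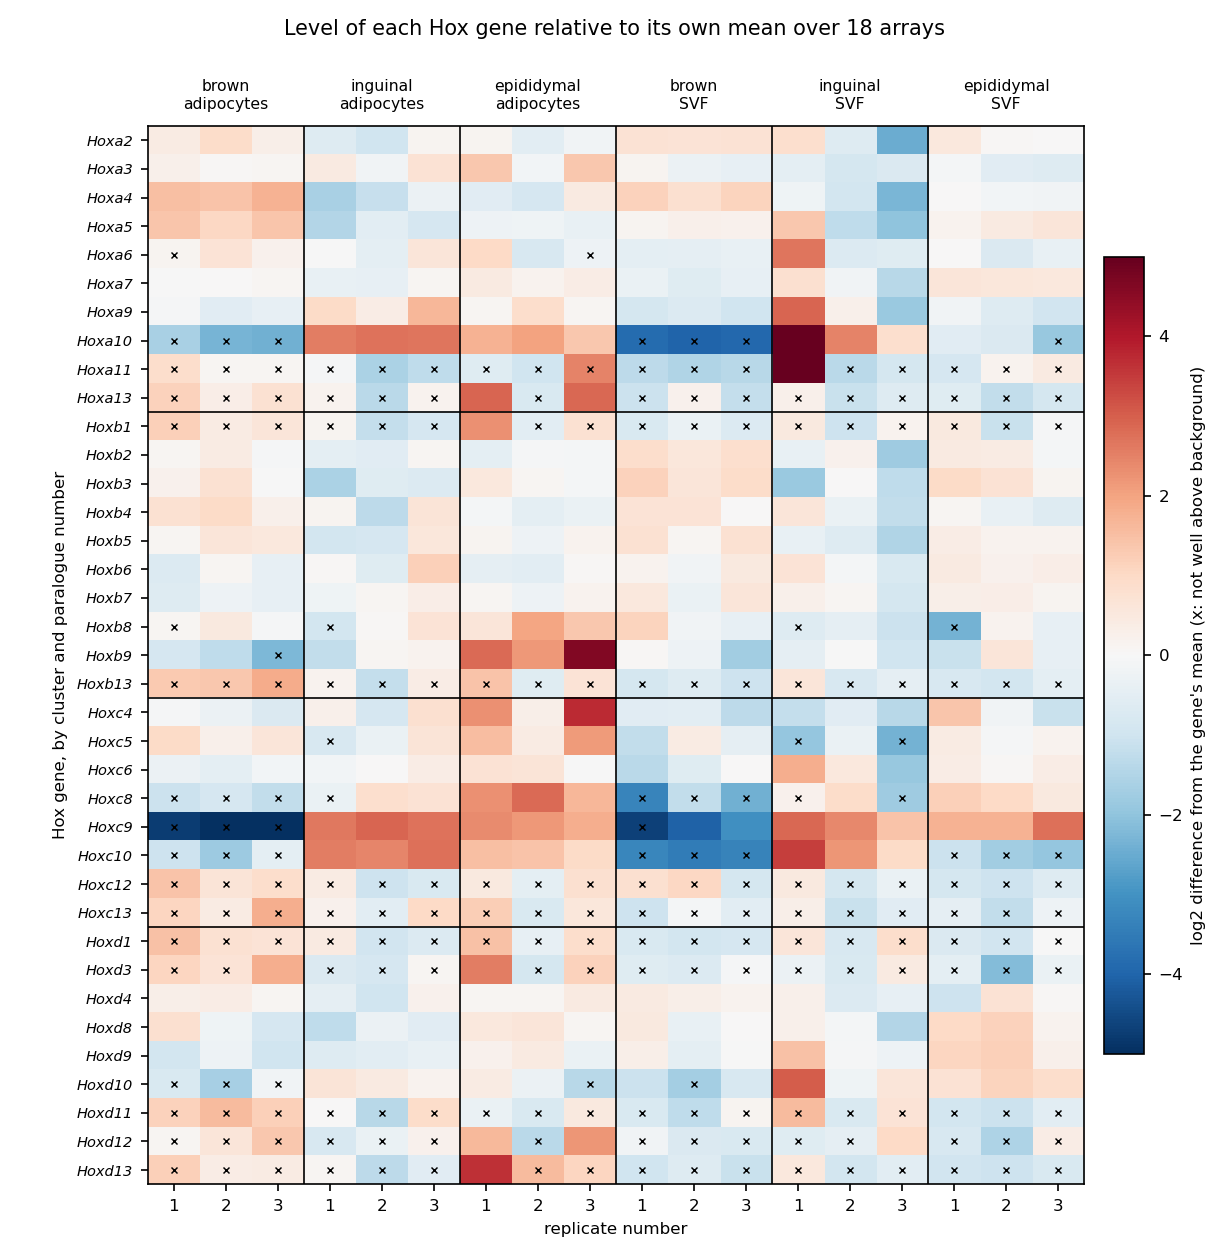
Rows are 37 of the 38 Hox genes by cluster and number, columns the 18 arrays by group and replicate, and colours the log2 difference of each level from that gene's own mean over all arrays, with the scale ending at 5 in either direction. Crosses mark signals not well above background; Hoxc9 is low in all 6 brown arrays, Hoxa10 and Hoxc10 are dim in all 6, and Hoxa11 is above background only in the array labelled inguinal SVF 1.

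No Hox gene of groups 11 to 13 was above background on all 3 arrays of any depot or fraction. Of the 38 genes, 27 passed the filter, which asks for a signal well above background in all replicates of some group, and were tested. On the 18 arrays without exception, 18 of these stood above background, among them Hoxa7, Hoxa9, Hoxb2 to Hoxb7, Hoxc4, Hoxc6, Hoxd4, Hoxd8 and Hoxd9. The 11 genes that did not pass were Hoxa11, Hoxa13, Hoxb1, Hoxb13, Hoxc12, Hoxc13, Hoxd1, Hoxd3, Hoxd11, Hoxd12 and Hoxd13. Hoxb13, Hoxc12, Hoxc13, Hoxd1 and Hoxd11 were above background on none of the 18 arrays. Hoxa13, Hoxd3, Hoxd12, Hoxd13 and Hoxb1 were above background on 1 to 3 arrays, and epididymal adipocyte 1, the array with the most spots above background, was among them each time. A second Hoxd3 probe was above background on 2 brown SVF arrays and 1 epididymal SVF array.

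Hoxa11, which patterns the forearm, the kidney and the uterus in the mouse and is the one gene of groups 11 to 13 with a high value. It stood at 1.1 in inguinal SVF 1 and was not above background on the other 17 arrays. The array that held it is the one with Xist and without Ddx3y.

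The number of Hox genes above background differed little between the groups up to group 8 and more beyond it. Of the 15 genes numbered 9 to 13, those above background on all 3 arrays were 2 in brown adipocytes (Hoxa9 and Hoxd9), 7 in inguinal adipocytes and 6 in epididymal adipocytes. In SVF they were 3 in the brown depot (Hoxa9, Hoxb9 and Hoxd9), 7 in the inguinal and 5 in the epididymal depot. Of the 15 genes numbered 1 to 5, the groups had 11 or 12. Brown adipocyte arrays had 49.6% to 58.5% of spots above background, against 58.0% to 69.5% in inguinal and 62.8% to 87.9% in epididymal adipocytes. In SVF the shares were 67.2% to 72.2% in brown, 56.5% to 68.3% in inguinal and 66.2% to 72.3% in epididymal fat. The part of this in the counts was not tested.

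Brown adipocytes differed from inguinal adipocytes in 5 of the 27 Hox genes, 2 higher and 3 lower, which is 18.5% against 12.2% of all genes tested, with 6.37% higher and 5.84% lower. Against epididymal adipocytes 7 were called, 1 higher and 6 lower. That is 25.9% of the Hox genes beside 28.8% of all genes (12.3% higher and 16.4% lower), a share near the background that is not a result about the family. In SVF the shares stood further apart: 5 Hox genes were called between brown and inguinal SVF, 18.5% against 2.27% of all genes, and 2 between brown and epididymal SVF, 7.41% against 1.78%. White adipocyte arrays were scanned on other days and extracted with another version of the scanner software than the brown adipocyte and all SVF arrays. In the adipocyte comparisons with brown, the depot and the run therefore cannot be told apart. The same holds for the fraction and the run in adipocytes minus SVF of both white depots, and for the interactions with brown. Inguinal and epididymal adipocytes shared no slide or scan day. All SVF arrays shared 2 scan days. In replicates 1 and 2 brown SVF was on another slide than white SVF, and only the replicate 3 arrays shared a slide. Stromal markers moved with the adipocyte comparisons: progenitor sums were 58.7 to 81.5 in brown, against 98.6 to 398 in inguinal and 192 to 291 in epididymal adipocytes. Macrophage sums were 0.79 to 2.69 in brown, against 4.58 to 23.1 in inguinal and 8.78 to 20.4 in epididymal adipocytes. Their part in the Hox differences was not tested.

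The fitted brown differences tended to run with the order of the genes along the clusters, though most single genes were not called. Of the 7 tested genes of groups 9 and 10, 3 were called lower in brown than in inguinal adipocytes, 4 than in epididymal adipocytes, 3 than in inguinal SVF and 1 than in epididymal SVF, and none was called higher. The fitted difference was negative for all 7 in the first 3 comparisons, and for the 6 genes above background in at least 1 of the groups in brown minus epididymal SVF. Hoxc10 was below background in both groups there and is not counted. Hoxa10, Hoxc9, Hoxc10 and Hoxd10 passed the filter through white groups only, which by itself favours a lower brown value for them. On second probes Hoxd9 gave 0.14 for brown minus inguinal adipocytes and Hoxb9 gave 0.06 for brown minus inguinal SVF. Where brown fat was below background, as for Hoxa10 and Hoxc10, the fitted size is no measured level and the bounds below hold instead. Hoxd10 was also below background in brown adipocytes. Its epididymal adipocyte mean, -4.44, lay below the lowest signal above background on each brown adipocyte array. No bound holds for Hoxd10 there, and its negative sign against epididymal adipocytes is not measured. Of the 12 genes of groups 1 to 5, between 9 and 12 had a positive difference, with medians of 0.81 and 0.34 in adipocytes and 1.06 and 0.35 in SVF, inguinal comparison first. The median over all genes lay between -0.01 and 0.15 in these comparisons. Of the 12 genes, 2 were called higher in brown than in inguinal adipocytes, 1 than in epididymal adipocytes, 2 than in inguinal SVF and none than in epididymal SVF. Hoxc4 was called lower in brown than in epididymal adipocytes.

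Across the 27 genes, Spearman's coefficient between paralogue number and the fitted brown difference was -0.77 against inguinal and -0.64 against epididymal adipocytes. In SVF it was -0.81 against inguinal and -0.72 against epididymal fat. These values describe genes of the same arrays, which share their libraries and are not independent. They use fitted sizes also where brown fat was below background, as for Hoxa10, Hoxc8 and Hoxc10, and for Hoxc9 and Hoxd10 in adipocytes. In brown minus epididymal SVF they include Hoxc10, which was below background in both groups. Genes that passed the filter only through white groups are among them. The coefficient was negative within each of the 4 clusters in each of the 4 comparisons, between -1.0 in Hoxd, with 4 genes, and -0.37 in Hoxc against epididymal adipocytes. Without inguinal SVF 1 the value for brown against inguinal SVF was -0.79, with a positive difference for 12 of 12 genes of groups 1 to 5 and a negative one for 6 of 7 genes of groups 9 and 10.

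**Figure D2:**
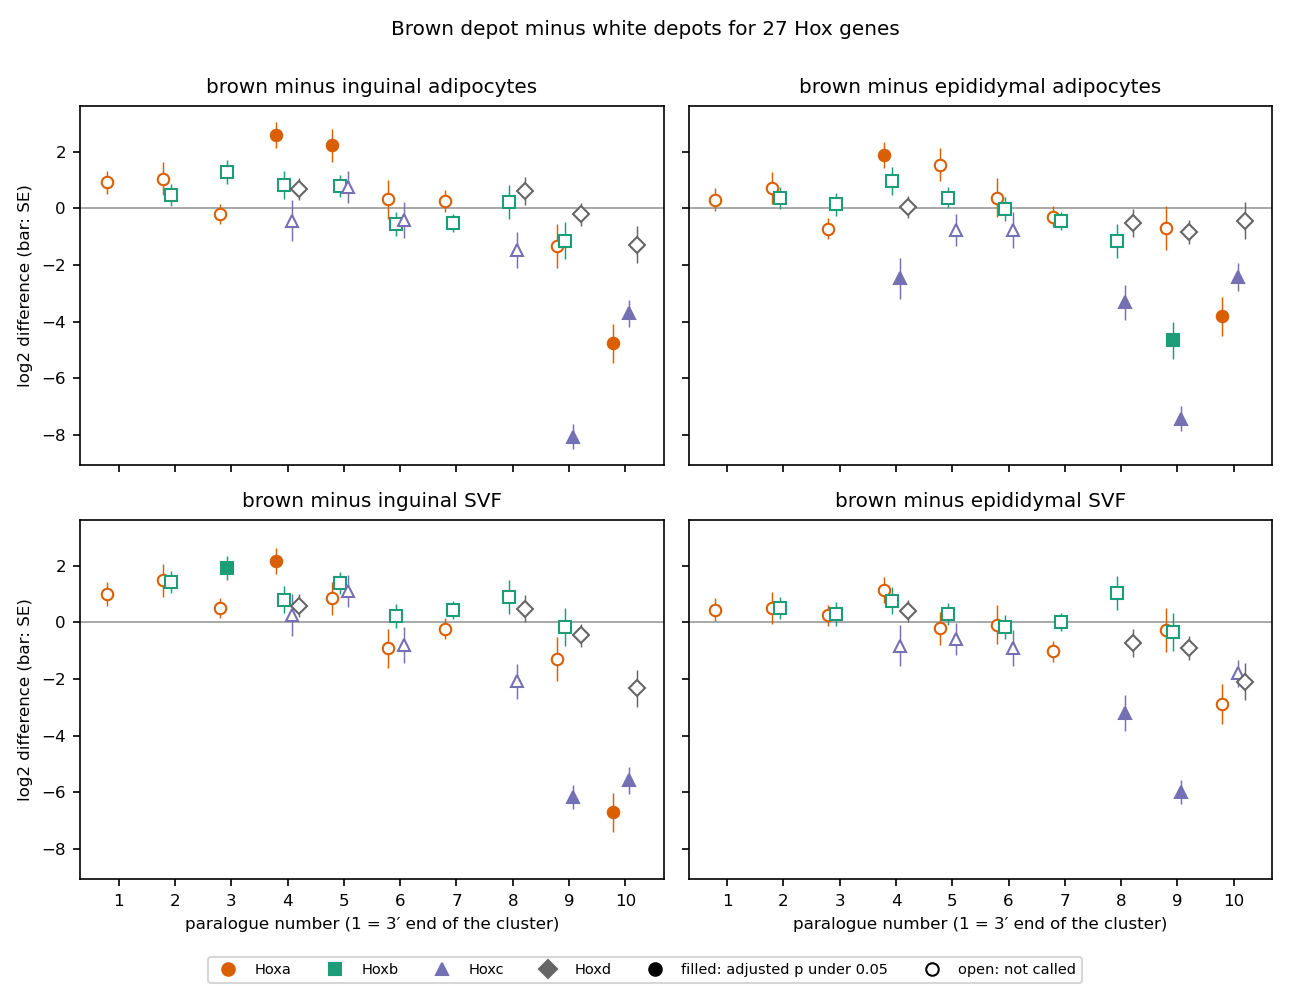
Each panel plots the log2 difference, brown minus a white depot, of 27 Hox genes (vertical axis, bars are SE) against paralogue number (horizontal axis), with symbols by cluster and filled symbols for called genes. The points of groups 9 and 10 all lie below 0, with Hoxc9 lowest in 3 of the 4 panels and Hoxa10 in brown minus inguinal SVF. Hoxc10 was below background in both groups of brown minus epididymal SVF, so its point there is no measured difference. No bound holds for Hoxd10 in brown minus epididymal adipocytes, so that point is no measured difference either.

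Hoxc9, which sets thoracic identity in the trunk skeleton and spinal cord, had the widest range of group means of all Hox genes, 8.06 on the log2 scale. Its probe lies at chr15:102812338-102812397 (mm8). It read -5.71, -6.56 and -6.46 in brown adipocytes, not well above background on any of the 3 arrays. Levels were 1.70, 1.98 and 1.77 in inguinal and 1.43, 1.23 and 0.88 in epididymal adipocytes. Brown and white adipocytes did not overlap, and inguinal lay a little above epididymal adipocytes without overlap. Hoxc9 was at least 58.2-fold lower in brown than in inguinal adipocytes (limma log2 difference -8.06, SE 0.44, adjusted p = 1.92e-07). It was at least 37.4-fold lower in brown than in epididymal adipocytes (adjusted p = 6.24e-07).

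In SVF, Hoxc9 read -5.60, -4.99 and -4.02 in the brown depot, with replicates 2 and 3 above background. Levels were 1.94, 1.46 and 0.47 in inguinal and 0.78, 0.79 and 1.79 in epididymal SVF. All white arrays lay far above all brown ones, and the white depots overlapped. The log2 difference was -6.16 (SE 0.44, limma adjusted p = 8.79e-06) for brown minus inguinal SVF and -5.99 (adjusted p = 9.28e-06) for brown minus epididymal SVF. Without inguinal SVF 1 brown minus inguinal SVF gave -5.83 (adjusted p = 5.02e-05). Within the scan day of replicates 1 and 2 the differences from inguinal and epididymal SVF were -7.00 and -6.08. Brown and white SVF were on different slides that day. Between the single arrays of the last day the differences were -4.48 and -5.81. No difference between inguinal and epididymal fat was called for Hoxc9 (log2 difference 0.64, adjusted p = 0.396 in adipocytes, and 0.17, adjusted p = 0.925 in SVF).

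Hoxa10, a lumbar gene whose group suppresses ribs in the mouse, was below background in all brown arrays. It read -5.44, -6.16 and -6.24 in brown adipocytes, below background throughout. Levels were -1.29, -1.11 and -1.14 in inguinal and -2.10, -1.82 and -2.50 in epididymal adipocytes. The 3 groups did not overlap, but inguinal minus epididymal adipocytes was not called (0.96, adjusted p = 0.427). Hoxa10 was at least 7.3-fold lower in brown than in inguinal adipocytes (limma adjusted p = 0.00123) and at least 3.75-fold lower than in epididymal adipocytes (adjusted p = 0.00172). The second call did not hold with dim signals set to the floor of their array (adjusted p = 0.0552) or with normexp (log2 difference -1.03, adjusted p = 0.235).

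In SVF the Hoxa10 values were -7.68, -7.85 and -7.76 in the brown depot, below background on all 3 arrays. They were 1.15, -1.34 and -2.99 in inguinal SVF, where replicate 1 had the highest level of the series. Epididymal SVF read -4.39, -4.55 and -5.72, above background on 2 of 3 arrays. Again the groups did not overlap, in the order inguinal, epididymal, brown. Hoxa10 was at least 27.2-fold lower in brown than in inguinal SVF (limma adjusted p = 3.29e-04), and at least 12.6-fold lower without inguinal SVF 1 (adjusted p = 5.02e-05). Brown minus epididymal SVF was not called for Hoxa10 (-2.88, adjusted p = 0.0503). Inguinal minus epididymal SVF gave 3.83 (SE 0.70, adjusted p = 0.0297) with replicate 1 and 2.72 (SE 0.46, adjusted p = 0.00802) without it. That call was lost without epididymal SVF 1, 2 or 3 (adjusted p = 0.0722, 0.104 and 0.124), in the deposited matrix (0.0932) and with the scan day as a fixed block (0.0758). When only the groups compared were fitted, inguinal SVF 1 to 3 gave their own spread and 0 of 27 Hox genes were called between brown and inguinal SVF or between inguinal and epididymal SVF. In those fits 2 and 0 of all 19217 genes were called by limma. The adjusted p for brown minus inguinal SVF was then 0.0748 for Hoxa10 and 0.0596 for Hoxc9 and Hoxc10.

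Hoxc10, the paralogue of Hoxa10 and a gene of lumbar motor neurons and hindquarters, was likewise below background in brown fat. It read -5.64, -6.42 and -5.10 in brown adipocytes, below background on all arrays. Levels were -2.04, -2.16 and -1.84 in inguinal and -3.09, -3.18 and -3.65 in epididymal adipocytes. In SVF it was below background in the brown depot (-7.85, -8.09 and -7.94) and in the epididymal depot (-5.67, -6.32 and -6.52). Inguinal SVF had -1.12, -2.40 and -3.63. Inguinal minus epididymal adipocytes was not called (1.29, adjusted p = 0.112). Hoxc10 was thus above background on every inguinal array, on all epididymal adipocyte arrays, and on none of the other 9.

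Hoxc10 was at least 4.09-fold lower in brown than in inguinal adipocytes (limma adjusted p = 8.15e-04), a call just missed with normexp (-1.69, adjusted p = 0.0508). Against epididymal adipocytes it was at least 1.67-fold lower in brown (adjusted p = 0.00291), a call lost in the deposited matrix (adjusted p = 0.126), with dim signals at the floor (adjusted p = 0.242) and with normexp (log2 difference -0.31, adjusted p = 0.776). In SVF it was at least 10.85-fold lower in the brown than in the inguinal depot (adjusted p = 7.31e-05), and at least 6.99-fold without inguinal SVF 1. Inguinal SVF was at least 9.35-fold above epididymal SVF (adjusted p = 0.00201), and at least 6.03-fold without replicate 1 (adjusted p = 0.00115). Hoxa10 and Hoxc10 were the only Hox genes called between the white SVF groups, 2 of 27 (7.41%) beside 0.297% of all genes, 0.0572% being higher in inguinal SVF. Both were higher in inguinal SVF, in every replicate. Without inguinal SVF 1, 4 were called beside 1.19% of all genes: Hoxa10 and Hoxc10 higher, and Hoxa5 (-2.06, adjusted p = 0.00254) and Hoxa7 (-1.33, adjusted p = 0.0458) lower in inguinal SVF.

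A second probe for Hoxc10 reads coding sequence, and its ends lie 3249 bases apart on the mm8 genome (chr15:102795624-102798872, plus strand), so it spans a splice junction. It is printed without capitals because the position of the junction within it was not analysed here.
Hoxc10: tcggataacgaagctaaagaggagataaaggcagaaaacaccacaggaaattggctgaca
This probe gave -1.45 (adjusted p = 0.107) for brown minus inguinal adipocytes, -2.01 (adjusted p = 0.0175) for brown minus epididymal adipocytes and -3.09 (adjusted p = 0.0098) for brown minus inguinal SVF. For inguinal minus epididymal fat it gave -0.56 (adjusted p = 0.588) in adipocytes, with the sign turned, and 2.64 (adjusted p = 0.0847) in SVF, where the call was lost. It was below background on all 6 brown arrays and all 3 epididymal SVF arrays. The same was true of 1 of 3 epididymal adipocyte arrays and 1 of 3 inguinal SVF arrays. Its fitted sizes against brown fat and epididymal SVF are therefore no measured levels. Its inguinal adipocyte mean, -4.43, lay below the lowest signal above background on each brown adipocyte array, so no bound holds there.

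In other members the group means lay close together, though single arrays did not always. In inguinal SVF 1 to 3, Hoxc6 read 1.98, 0.68 and -1.73, and Hoxa6 read -0.88, -4.25 and -4.16. The narrowest range of group means in each cluster was 0.65 for Hoxb6, 0.73 for Hoxd4, 0.91 for Hoxa6 and 1.1 for Hoxc6. All 4 have numbers of 8 or below, and none was called between depots on the probe used.

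**Figure D3:**
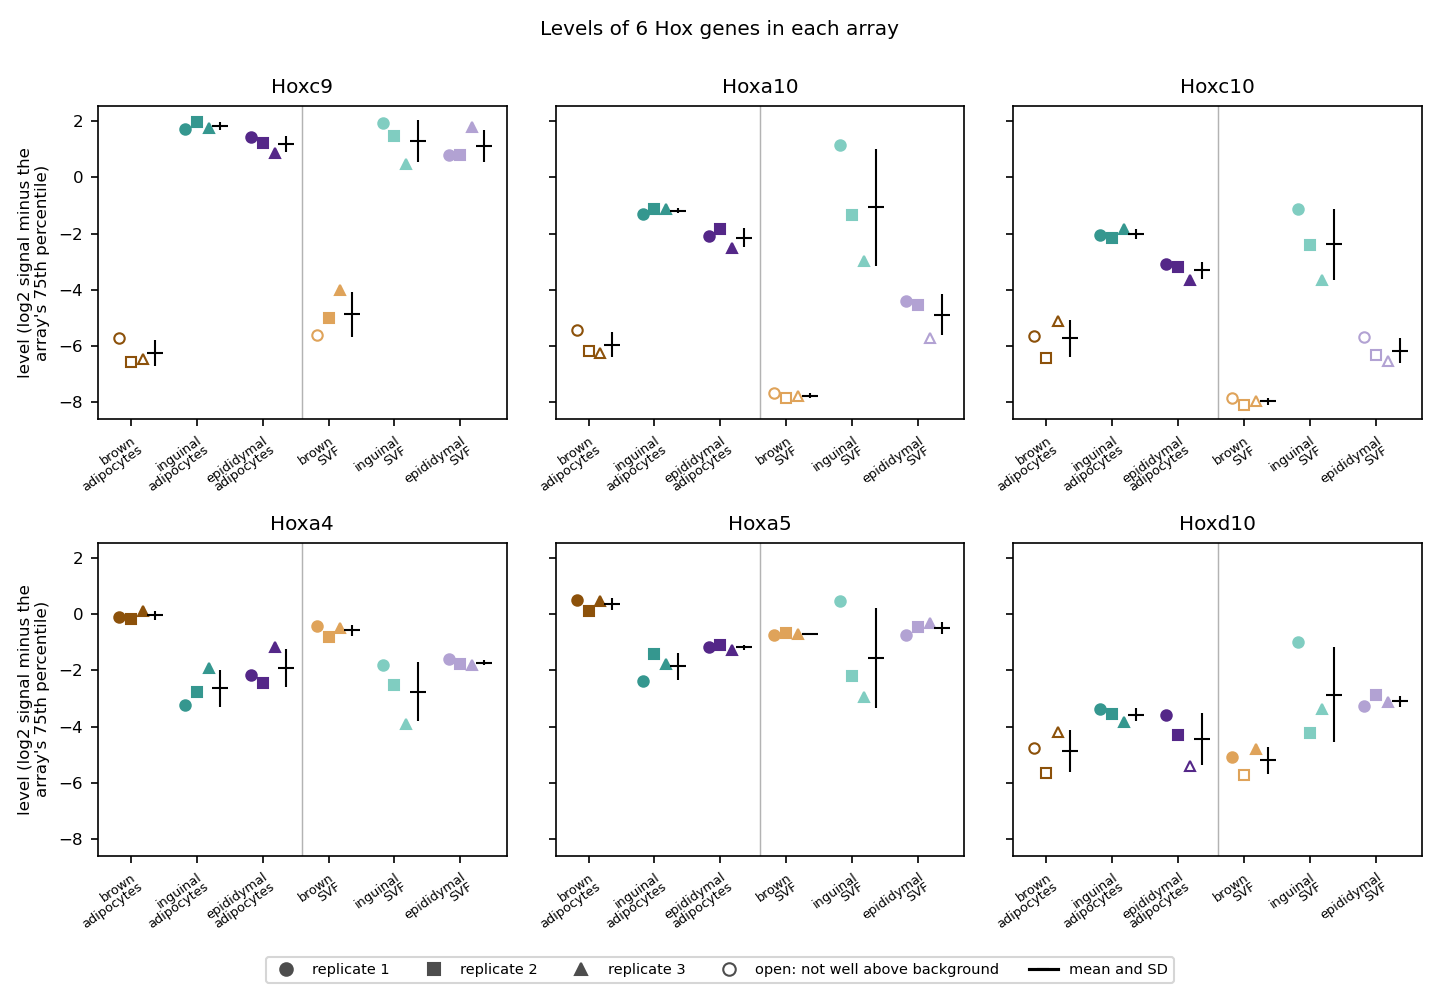
Levels (log2 signal minus the array's 75th percentile, vertical axis) of 6 Hox genes in the 6 groups (horizontal axis), with 1 symbol per replicate, open where the signal was not well above background, and a bar for the mean and SD. Within each fraction, brown arrays lie lowest for Hoxc9 and Hoxa10 and highest for Hoxa4, and inguinal SVF is the group with the widest spread in Hoxa10, Hoxa5 and Hoxd10.

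Hoxc8 is the thoracic gene next to Hoxc9. Like Hoxa5, Hoxb3, Hoxc4, Hoxb2, Hoxb8, Hoxa3, Hoxa2, Hoxa9 and Hoxa11, it is named here after its values were seen. It was below background on all 6 brown arrays, at -5.46, -5.23 and -5.63 in adipocytes and at -7.69, -5.60 and -6.79 in SVF. Epididymal adipocytes had -2.11, -1.55 and -2.74, and epididymal SVF -3.20, -3.39 and -3.90. Inguinal fat lay between, with 2 of 3 adipocyte arrays and 1 of 3 SVF arrays above background. Hoxc8 was at least 3.76-fold lower in brown than in epididymal adipocytes (limma adjusted p = 0.00197) and at least 4.67-fold lower in brown than in epididymal SVF (adjusted p = 0.0129). The SVF call was lost without brown SVF 1 or 3 (adjusted p = 0.0795 and 0.0555) and without epididymal SVF 1 or 2 (0.0579 and 0.0601), and in the deposited matrix (log2 difference -0.99, adjusted p = 0.0687). Both calls were lost with normexp.

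Hoxd10, the third member of paralogue group 10, had the widest range in its cluster, 2.33. It read -4.77, -5.66 and -4.17 in brown adipocytes, below background, against -3.36, -3.56 and -3.82 in inguinal and -3.60, -4.31 and -5.41 in epididymal adipocytes. In SVF it read -5.07, -5.72 and -4.79 in the brown depot, against -0.98, -4.21 and -3.38 in the inguinal and -3.27, -2.89 and -3.14 in the epididymal depot. White SVF lay above brown SVF on all arrays, and inguinal SVF 1 stood above all others. No comparison of Hoxd10 was called. Among the genes of group 9, Hoxa9 and Hoxd9 were above background on all 18 arrays and were not called between depots either.

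Hoxa4 and Hoxa5 were called higher in brown than in some of the white groups. Hoxa4, a gene of the neck vertebrae, was called in 3 of the comparisons with white fat. It read -0.09, -0.16 and 0.12 in brown adipocytes, against -3.22, -2.75 and -1.92 in inguinal and -2.16, -2.46 and -1.16 in epididymal adipocytes. In SVF the brown depot had -0.44, -0.81 and -0.49, against -1.82, -2.53 and -3.90 in the inguinal and -1.60, -1.76 and -1.80 in the epididymal depot. Brown arrays were above all white arrays within each fraction, but brown minus epididymal SVF was not called (1.14, limma adjusted p = 0.334). The SD of Hoxa4 was 1.06 in inguinal SVF, which entered the shared spread, against 0.20 in brown and 0.10 in epididymal SVF.

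Hoxa4 was 6.00-fold higher in brown than in inguinal adipocytes (limma log2 difference 2.58, SE 0.46, adjusted p = 0.00332) and 3.68-fold higher than in epididymal adipocytes (adjusted p = 0.00855). It was 4.51-fold higher in brown than in inguinal SVF (adjusted p = 0.0212), and the log2 difference was 2.64 (adjusted p = 0.00816) without inguinal SVF 1. The SVF call was lost without brown SVF 1 or 3 or inguinal SVF 3 (adjusted p = 0.0891, 0.0819 and 0.064). All 3 were lost with normexp (adjusted p between 0.058 and 0.234). A second, coding probe of Hoxa4 (chr6:52120179-52120238, minus strand, mm8) reads the start of its homeobox.
Hoxa4: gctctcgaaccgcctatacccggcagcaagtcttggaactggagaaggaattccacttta
It gave 2.38 (adjusted p = 0.00529) and 1.74 (adjusted p = 0.0128) for brown minus inguinal and epididymal adipocytes, and 1.58 (adjusted p = 0.088) for brown minus inguinal SVF. The adipocyte calls were made on both Hoxa4 probes. The second was above background on all 6 brown arrays, but on 1 of 3 arrays in each white adipocyte group and on none in inguinal SVF.

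Hoxa5, which patterns the neck and upper thorax and the airways, read 0.50, 0.13 and 0.48 in brown adipocytes. Inguinal adipocytes had -2.38, -1.42 and -1.76, and epididymal adipocytes -1.15, -1.11 and -1.27. Brown adipocytes were above all white adipocytes, and the inguinal arrays were the lowest. Brown minus epididymal fat was not called for Hoxa5 in either fraction. The shared spread included inguinal SVF, where the SD of Hoxa5 was 1.78, against 0.21 in brown and 0.08 in epididymal adipocytes. The missing call is therefore not read as equal levels. The difference of brown minus inguinal adipocytes was called (2.22, SE 0.58, limma adjusted p = 0.0232), but was lost without brown adipocyte 1 or 3 or inguinal adipocyte 1 (adjusted p = 0.0733, 0.0766 and 0.11) and with normexp (log2 difference 1.22, adjusted p = 0.138). In SVF Hoxa5 read -0.76, -0.66 and -0.70 in the brown, 0.46, -2.19 and -2.93 in the inguinal and -0.73, -0.46 and -0.30 in the epididymal depot. Inguinal SVF 1 stood apart from its group. Without it, Hoxa5 was called both for brown minus inguinal SVF (1.86, adjusted p = 0.00563) and for inguinal minus epididymal SVF (-2.06, adjusted p = 0.00254).

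Hoxb3, a hindbrain and pharyngeal gene, was called for brown minus inguinal SVF (1.93, SE 0.42, adjusted p = 0.0256). It read -0.94, -1.52 and -1.17 in brown, against -3.96, -2.10 and -3.36 in inguinal SVF. The call was lost without inguinal SVF 1 (log2 difference 1.52, adjusted p = 0.0664), without inguinal SVF 3 (0.0769) or brown SVF 1 or 3 (0.114 and 0.0917), with normexp (log2 difference 0.40, adjusted p = 0.513) and with the mean of both Hoxb3 probes (1.12, adjusted p = 0.103). Its second probe, which lies in the homeobox, gave 0.31 (adjusted p = 0.794). Without inguinal SVF 1, Hoxa2 was called for brown minus inguinal SVF instead (2.29, adjusted p = 0.0187). In that setting 6 Hox genes were called in this comparison, beside 2.81% of all genes.

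Between the white depots, none of the genes of groups 1 to 5 was called by limma. Of the 12 genes of groups 1 to 5, 11 had a negative difference for inguinal minus epididymal adipocytes and 12 for inguinal minus epididymal SVF, also without inguinal SVF 1, where Hoxa5 was called. Spearman's coefficient with paralogue number was 0.30 in adipocytes and 0.53 in SVF, over the same 27 genes, dim ones included.

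Inguinal and epididymal adipocytes differed in 1 Hox gene, Hoxb9, 3.70% of the family beside 7.65% of all genes. Hoxb9 acts in the thoracic skeleton with its paralogues. Its brighter probe (chr11:96092524-96092583, mm8) read -2.92, -3.37 and -4.32 in brown and -3.32, -1.97 and -1.91 in inguinal adipocytes, against 0.75, 0.08 and 2.54 in epididymal adipocytes. In SVF the values were -2.04, -2.34 and -3.84 in the brown, -2.53, -2.12 and -3.07 in the inguinal and -3.20, -1.50 and -2.51 in the epididymal depot. Only epididymal adipocytes stood out.

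On this probe Hoxb9 was 25.3-fold lower in brown than in epididymal adipocytes (limma log2 difference -4.66, SE 0.66, adjusted p = 3.47e-04). It was lower in inguinal than in epididymal adipocytes (-3.53, SE 0.66, adjusted p = 0.0101), a call lost without epididymal adipocyte 3 (-2.82, adjusted p = 0.0523) or inguinal adipocyte 1 (-3.07, adjusted p = 0.0525) and with normexp (adjusted p = 0.182). The other Hoxb9 probe, upstream at chr11:96091841-96091900, did not show this. It read -3.58, -2.95 and -3.25 in brown, -2.33, -2.86 and -2.68 in inguinal and -1.57, -2.08 and -2.19 in epididymal adipocytes. There brown minus epididymal adipocytes was -1.31 (adjusted p = 0.0147) and inguinal minus epididymal adipocytes -0.68 (adjusted p = 0.264). The lower level in brown adipocytes was called on both probes, the difference between white depots on 1.

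Hoxc4 and Hoxb6 also had high signals in epididymal adipocyte 1 and 3. Hoxc4, a gene of the neck, read 0.11, -1.91 and 1.55 in epididymal adipocytes, against -2.27, -2.48 and -2.91 in brown adipocytes. It was called lower in brown (-2.47, SE 0.73, limma adjusted p = 0.0219), a call lost without epididymal adipocyte 1 or 3 or brown adipocyte 3 (adjusted p = 0.0664, 0.114 and 0.0735) and with normexp (-1.67, adjusted p = 0.148). The dimmer probe of Hoxb6 read 2.56, 0.24 and 2.21 in epididymal adipocytes, while its brighter probe read 0.48, 0.43 and 1.01. The 2 probes gave -2.41 (adjusted p = 0.00835) and -0.03 (adjusted p = 0.967) for brown minus epididymal adipocytes. Epididymal adipocyte 1 had 87.9% of its spots above background, replicate 2 had 68.7% and replicate 3 had 62.8%; the part of this in the result was not tested.

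**Figure D4:**
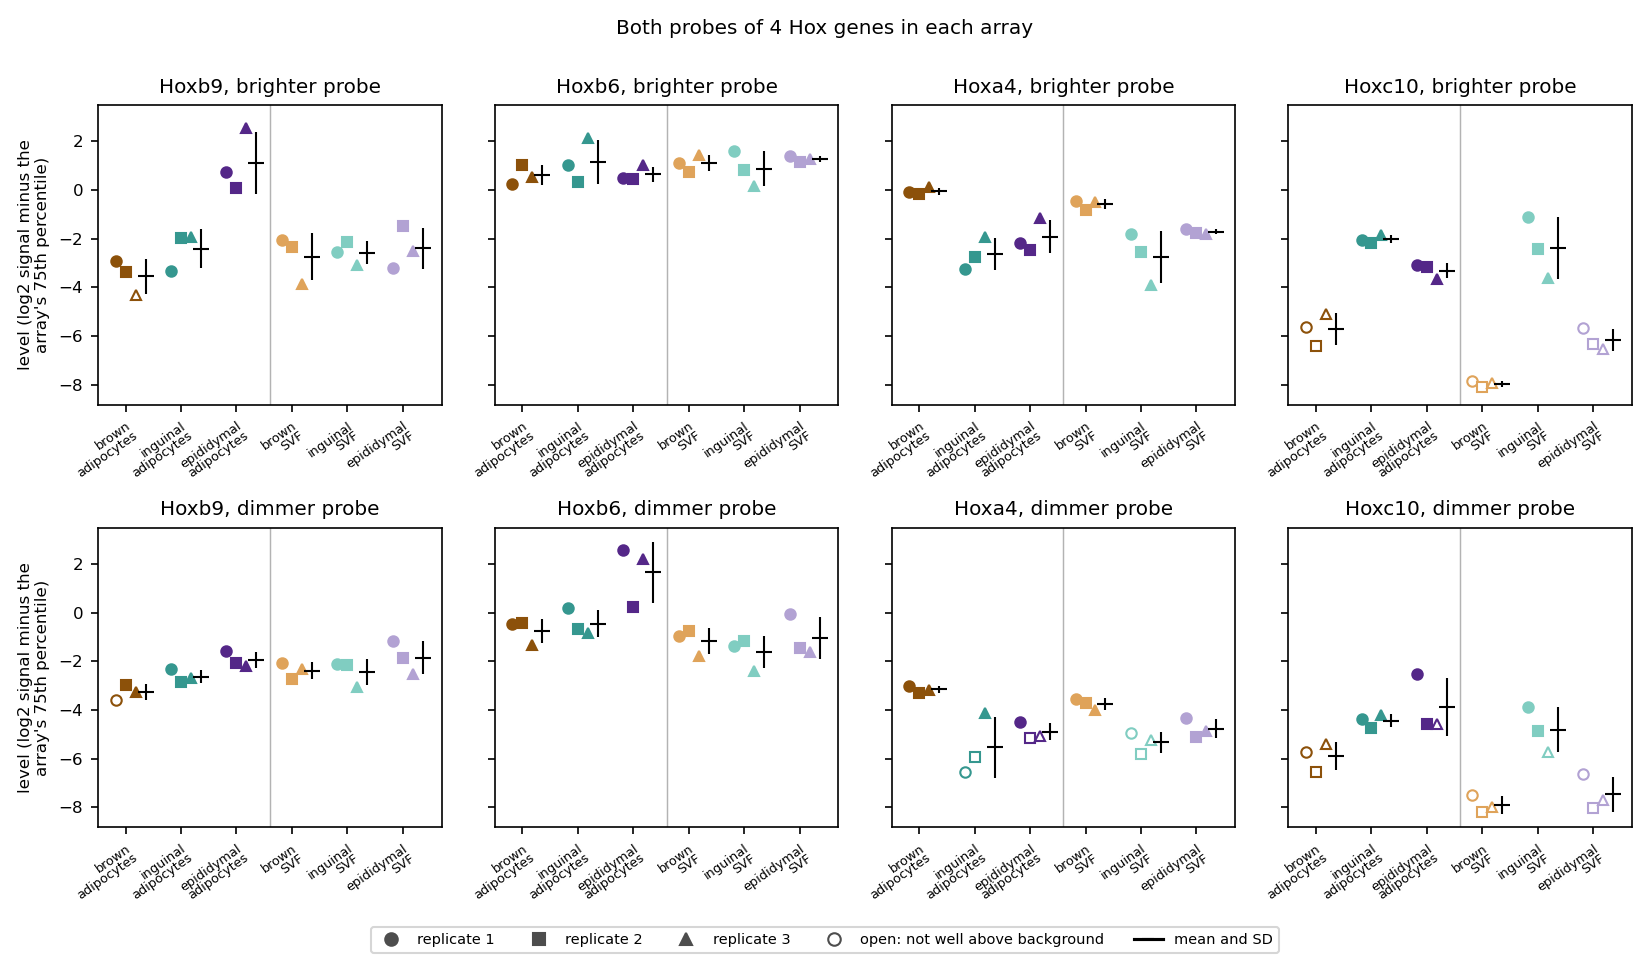
Columns are Hoxb9, Hoxb6, Hoxa4 and Hoxc10, with the brighter probe above and the dimmer below; the vertical axis is the level (log2 signal minus the array's 75th percentile) and the horizontal axis the 6 groups, with open symbols for signals not well above background and bars for mean and SD. The high epididymal adipocyte values of Hoxb9 and Hoxb6 appear on 1 of their 2 probes, while the probes of Hoxa4 order the depots alike.

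There were 8 Hox genes with 2 probes that passed the filter. Over the 12 comparisons the pair had the same sign in 73 of 96 cases. Where either probe was called, in 20 cases, the sign was shared in 16, and both were called in 7, never with opposite sign. The second probe named Hoxb2 lies on the strand opposite to the gene (chr11:96166636-96166695, minus strand, mm8), and its cases are among the 96. It was higher in brown than in inguinal adipocytes (1.75, limma adjusted p = 0.0275) and than in epididymal adipocytes (1.52, adjusted p = 0.0274), where the sense probe gave 0.47 and 0.37 and was not called.

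Within a depot, few Hox genes were called between adipocytes and SVF. Brown adipocytes and brown SVF differed in 2 of 27 Hox genes, 7.41% beside 21.1% of all genes. One of the 2 was Hoxc10, which was below background on all 6 arrays and has no level to compare. The other was Hoxc9 (-1.37, SE 0.44, adjusted p = 0.0356), below background in the adipocytes and on 1 of 3 SVF arrays, where the sign turned with dim signals at the floor (0.82) and with normexp (0.37). The lowest signal above background stood between -4.34 and -3.50 on the brown adipocyte arrays, against -5.92 to -5.71 on the brown SVF arrays. Neither call compares levels measured in both fractions.

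In inguinal fat 0 of 27 Hox genes were called by limma between adipocytes and SVF, beside 13.9% of all genes, with 3 at an unadjusted p under 0.05. Without inguinal SVF 1, Hoxa9 was called higher in adipocytes (1.79, adjusted p = 0.0407), beside 10.7% of all genes. In epididymal fat 6 were called, all higher in adipocytes, which is 22.2%. That is beside 25.0% of all genes called and 18.0% called higher in adipocytes, again near the background. In both white depots the adipocyte and SVF arrays shared no slide, scan day or software version, so fraction and run cannot be told apart. Hoxb9 (3.52, SE 0.66, adjusted p = 0.00274) and Hoxc10 (at least 4.93-fold, adjusted p = 0.00183) kept their calls when any 1 array of the groups compared was left out. The second Hoxb9 probe did not show it (-0.10, adjusted p = 0.86), and Hoxc10 was lost with normexp and in the deposited matrix (adjusted p = 0.0826 and 0.149).

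The other 4 epididymal calls were less firm. Hoxa10 (6.71-fold, adjusted p = 0.0113) was lost without epididymal SVF 3 (adjusted p = 0.0515), with normexp and in the deposited matrix (adjusted p = 0.168). Hoxb8 (2.18, adjusted p = 0.0169) was lost without epididymal SVF 1 or epididymal adipocyte 2 or 3 (adjusted p = 0.0727, 0.058 and 0.0508), and in the deposited matrix (0.0818). Hoxa3 (1.28, adjusted p = 0.0187) was lost without epididymal adipocyte 1 or 3 or epididymal SVF 2 or 3 (between 0.0657 and 0.0988), and its second probe gave -0.37. Hoxc4 (2.09, adjusted p = 0.0492) overlapped between the fractions and was lost without epididymal adipocyte 1 or 3 or epididymal SVF 2 or 3 (between 0.13 and 0.222). Progenitor markers, summed, lay between 192 and 291 in epididymal adipocytes against 501 to 716 in epididymal SVF, and mesothelial markers between 13 and 24.3 against 11.5 to 68.5; their part in these results was not tested.

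The interaction test asked whether the difference between fractions differed between depots. In the interactions with brown, this cannot be told apart from the run of the white adipocyte arrays. One Hox gene was called in 3 interactions, Hoxb9 for brown minus epididymal fat (-4.32, SE 0.94, limma adjusted p = 0.0293), beside 2.02% of all genes. Its second probe gave -0.78 (adjusted p = 0.393). The call was lost without brown SVF 1 or 2, brown adipocyte 3, epididymal SVF 1 or 3 or epididymal adipocyte 3 (adjusted p between 0.0556 and 0.0853) and with normexp (-2.85, adjusted p = 0.245). The other 2 interactions had 0 calls by limma beside 0.859% and 0.0781% of all genes, with 3 Hox genes each at an unadjusted p under 0.05. Hoxc9 in particular was not called in any (brown minus inguinal -1.90, adjusted p = 0.18, and brown minus epididymal -1.43, adjusted p = 0.207), although quantile normalization gave -2.91 and -2.58 with adjusted p of 0.0261 and 0.0259.

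The spread between replicates was far wider in inguinal SVF than elsewhere. The median SD over the 27 genes was 0.95 there, against 0.28 to 0.54 in the other 5 groups, and reached 2.38 for Hoxa9. Inguinal SVF 1 was the highest of its group in 20 of 27 genes and inguinal SVF 3 the lowest in 22. Replicate 1 was at 0.84 for Hoxa9 and -0.88 for Hoxa6, against -1.78 and -3.90 for Hoxa9 and -4.25 and -4.16 for Hoxa6 in replicates 2 and 3. The low array was the one with the highest lymphocyte and the lowest progenitor signal, and the high array the one with the mesothelial genes. Their part in the spread was not tested.

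**Figure D5:**
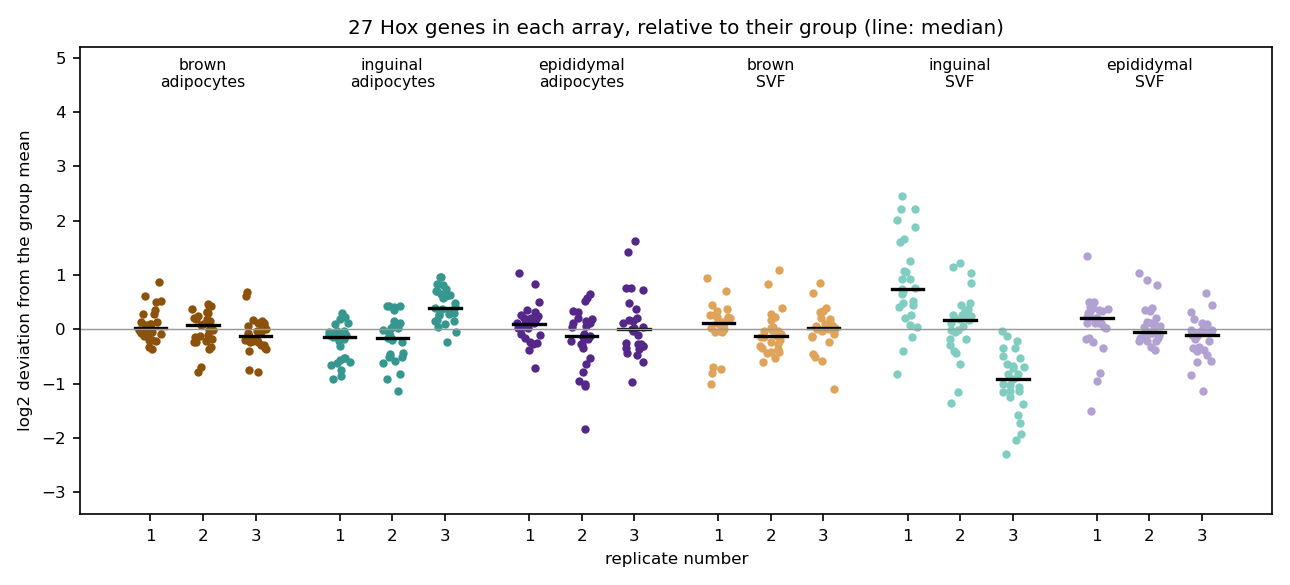
For each array (horizontal axis, by group and replicate) the points are the log2 deviations of 27 Hox genes from their group mean, and the line is their median. The medians of inguinal SVF 1 and 3 are 0.74 and -0.90, while those of the arrays of the other groups stay between -0.15 and 0.39.

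Of 9 genes for partners of Hox proteins, 1 was higher and 3 lower in brown than in epididymal adipocytes, where 12.3% of all genes were higher and 16.4% lower: Pbx3 (0.74, adjusted p = 0.0325), and Meis3 (-2.07, adjusted p = 6.07e-04), Pbx4 (-2.15, adjusted p = 0.0273) and Pknox2 (-1.46, adjusted p = 0.00952). Meis3 was also lower in brown than in inguinal adipocytes (-1.68, adjusted p = 0.00501). None of the 9 was called by limma between depots in SVF. Their median log2 difference was -1.12 for brown minus epididymal adipocytes, beside -0.01 for all genes.

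Of 16 Polycomb genes, which encode repressors of Hox clusters, 3 were higher in brown than in inguinal adipocytes, where 6.37% of all genes were, and none lower: Bmi1 (0.95, adjusted p = 0.0361), Cbx2 (1.09, adjusted p = 0.0111) and Phc1 (0.62, adjusted p = 0.0426). Against epididymal adipocytes 4 were higher in brown, where 12.3% of all genes were, among them Cbx2, Phc1 and Ring1. The median of the 16 was 0.31 and 0.53, beside 0.15 and -0.01 for all genes. Of 9 Trithorax genes, which keep Hox genes active, 3 were higher in brown than in epididymal adipocytes, beside the same 12.3%, Dpy30, Men1 and Rbbp5. No gene of either list was called between depots in SVF by limma.

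At the 3′ end of the Hoxa cluster lies Skap2, an adaptor protein gene and no homeobox gene. It read 3.15, 2.95 and 3.09 in brown adipocytes, against 2.18, 2.44 and 2.14 in inguinal and 2.18, 2.36 and 2.46 in epididymal adipocytes. It was called higher in brown than in inguinal and epididymal adipocytes (0.81, adjusted p = 0.0493, and 0.73, adjusted p = 0.0429). The other genes tested at the cluster ends were Evx2, Skap1, Lnpk, Mtx2, Smug1 and Calcoco1. In total 1 of 7 was higher and 1 lower in brown than in inguinal adipocytes, and 3 higher and 1 lower than in epididymal adipocytes, beside 12.2% and 28.8% of all genes called. With so few members these counts are given as descriptions. Of the upstream regulators listed, 3 of 6 were tested, and Cyp26b1, which degrades retinoic acid, was lower in brown than in epididymal adipocytes (-1.92, adjusted p = 0.0127). Antisense RNAs of the clusters were on the array under 3 names. The one call among them was Hoxd3os1, lower in inguinal than in epididymal adipocytes (-1.29, limma adjusted p = 0.0468), beside 7.65% of all genes. In SVF it gave -1.23 (adjusted p = 0.333). Hoxaas3 read -0.77 in inguinal SVF 1, its highest value, against -2.90 and -4.88 in inguinal SVF 2 and 3. The microRNA genes of the clusters were not analysed here.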

How the data were processed

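Per the labels' protocols, RNA was taken with Trizol, labelled with Cy3 and hybridised to one-colour Agilent 4x44K mouse arrays. The intensity values used are the processed signals of the deposited scanner files, background-corrected by Agilent Feature Extraction (version 9.5.3.1 for the white adipocyte arrays and 10.5.1.1 for the others, per the file headers). The deposited matrix holds log2 values whose normalization is not given in the sources used here, and served as an alternative. Each column best matched an array of its own group, but only 4 of 18 best matched their own array.

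Each array was centred on its log2 75th percentile. Control spots were left out, spots of a probe averaged, and probes kept when well above background on all 3 arrays of a group, which left 28595 of 41174 probes and 19217 genes, each by its brightest kept probe. limma 3.58.1 in R 4.3.3 fitted 6 group means over all arrays, with Benjamini-Hochberg adjustment at 0.05. The fit was tested on simulated data. Array number and signal over background limit the precision.

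Per-array values are given for Hoxc9, for members called in at least 3 of the 6 depot comparisons or in an interaction, and for the member of each cluster with the widest range of group means. The members, lists and rule were chosen with earlier results of these data known. The normexp alternative used median spot signals, with an offset of 50. Its calls over all genes differed widely from the main fit. For inguinal minus epididymal fat they were 4053 against 57 in SVF and 18 against 1470 in adipocytes. Results on some items are not reported here. Probe positions are those of the scanner files, in mm8. The labels do not say whether replicate numbers pair the samples, and the correlations below cannot settle it. Deviations of same-numbered arrays of different groups correlated between -0.263 and 0.514 over 45 pairs, with a median of 0.057. Differently numbered arrays gave -0.466 to 0.386 over 90 pairs, with a median of -0.041.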

Additional observations from a re-analysis of the deposited data

Results flagged for a closer look

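Hoxb9 was the one Hox gene whose difference between adipocytes and SVF differed between depots by a test of that difference. The difference of differences, brown minus epididymal, was -4.32 (SE 0.94, limma adjusted p = 0.0293). On the used probe the 3 epididymal adipocyte arrays lay above the other 15 arrays, and the second Hoxb9 probe gave -0.78 (adjusted p = 0.393). The epididymal adipocyte arrays were scanned apart from the other arrays of this test, so depot and run cannot be told apart.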

How the results depend on the processing

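Hoxc9 was called lower in brown than in inguinal and epididymal adipocytes and than in epididymal SVF under every alternative that kept it, and lower than in inguinal SVF under all but the fit of only those groups; the filter on all 18 arrays left it out. Of 152 recomputed counts of called Hox genes, other than those leaving out 1 array, 104 stayed within 1.5 times. Of 702 recomputed differences of single genes, 579 kept sign and side of the threshold, 109 lost the call, 2 gained one and 12 changed sign. Signal over background limits Hoxa10, Hoxc8 and Hoxc10 in brown fat, and Hoxc9 and Hoxd10 in brown adipocytes, to bounds at best. Totals over all genes moved with the settings: brown minus inguinal SVF had 437 calls of 19217 genes, 912 with scan day as a random block and 2 with only the groups compared, and changes in the Hox counts are not read as being about the family. Where no cause is named, the cause was not tested.

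Counts for brown minus inguinal adipocytes were 2 with normexp and 3 with probes above background on all 18 arrays, which removes the dim genes. For brown minus epididymal adipocytes these gave 2 and 3. For inguinal minus epididymal adipocytes the count was 2 with quantile normalization, the deposited matrix, no filter, dim signals at the floor and the replicate block, and 0 with normexp, the 18-array filter and only the groups compared. For brown minus inguinal SVF it was 3 with the 18-array filter and with scan day 6 only, 8 with scan day as a random block and 0 with only the groups compared. For brown minus epididymal SVF it was 1 with normexp, the matrix and scan day 6 only, 0 with the 18-array filter, 7 with only the groups compared and 5 without inguinal SVF 1 and epididymal adipocyte 3. For inguinal minus epididymal SVF it was 1 with the matrix and with scan day as a fixed block, and 0 with the 18-array filter, only the groups compared and scan day 6 only.

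For adipocytes minus SVF in brown fat the count was 1 with quantile normalization and with scan day as a fixed block, 0 with normexp, the matrix, the 18-array filter and scan day 6 only, 6 with no filter, and 4 with only the groups compared and without the 2 arrays. In inguinal fat it was 1 with the 18-array filter and with the replicate block. In epididymal fat it was 1 with normexp, 3 with the matrix and without the 2 arrays, and 2 with the 18-array filter. The interaction brown minus inguinal had 1 call with quantile normalization. The interaction brown minus epididymal had 2 with quantile normalization and with only the groups compared, and 0 with normexp, the 18-array filter and without the 2 arrays. Leaving out those 2 arrays and the scan-day fits of SVF were chosen after seeing the data.

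Each array was left out only for comparisons that contain its group, so inguinal SVF 1 stayed in the fits of comparisons without inguinal SVF. Leaving out 1 array at a time gave 4 to 6 calls for brown minus inguinal, 6 to 8 for brown minus epididymal and 0 to 4 for inguinal minus epididymal adipocytes. In SVF the same comparisons gave 3 to 7, 1 to 2 and 1 to 4. Adipocytes minus SVF gave 1 to 2 in brown, 0 to 1 in inguinal and 3 to 5 in epididymal fat. The interactions gave 0 for brown minus inguinal, 0 to 2 for brown minus epididymal and 0 to 1 for inguinal minus epididymal.

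The 12 changes of sign were all in Hoxc9 differences. Differences not called in the main fit were counted here for Hoxc9 only. Adipocytes minus SVF in brown fat, -1.37, became 0.37 with normexp and 0.82 with dim signals at the floor. Inguinal minus epididymal SVF, 0.17, became -0.17 with normexp, -0.16 without inguinal SVF 1, with or without epididymal adipocyte 3, and -0.0024 without epididymal SVF 1, and reached 0.58 without inguinal SVF 3. Adipocytes minus SVF in epididymal fat, 0.06, became -0.11 and -0.10 without epididymal SVF 1 or 2 and -0.06 without epididymal adipocyte 1, and reached 0.40 without epididymal SVF 3. The interaction brown minus inguinal became 0.30 at the floor, and brown minus epididymal 0.27 with normexp and 0.76 at the floor.

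Deviations of same-numbered samples had a median correlation of 0.057, and the replicate block gave 5, 7, 2, 5, 3 and 2 calls in the 6 depot comparisons.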
